A study of Brugia malayi with 68 samples.

Results

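Female-restricted genes of Brugia malayi, a filarial nematode that causes lymphatic filariasis, were followed through 68 RNA-seq libraries of females, males and microfilariae. A gene entered the set if its mean level in untreated females was at least 10 counts per 1000000 (CPM) and at least 4 times the higher of its untreated male and microfilaria means plus 1 CPM. Of 11590 genes, 371 met both conditions, and the 150 with the highest ratios are the members described here. The members were thus chosen on the 6 untreated female, 6 untreated male and 5 untreated microfilaria libraries of both days.

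Adult female filariae carry paired ovaries and a long uterus that fills most of the body and holds eggs, developing embryos and stretched microfilariae, which are released alive. RNA from a whole female therefore comes from her own tissues, from her germ line and from her brood. Microfilariae are the released larvae, and males carry a testis in place of these organs. In such bulk samples fewer cells of a type and less RNA per cell cannot be told apart. Genes are given by identifier, since the files pair none with a name, and no role can be given to a member.

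The worms came from Mongolian gerbils infected in the peritoneal cavity with third-stage larvae and held until the infection was patent. Gerbils were dosed with ivermectin (0.2 mg/kg), albendazole (1 mg/kg) or diethylcarbamazine (6 mg/kg) or were given none, and female worms, male worms and microfilariae were taken from them 1 or 7 days later. The labels call the groups without drug DMSO controls while the protocol calls those animals untreated, and they are called untreated here. Each of the 24 groups has 3 libraries, except that the day 7 microfilaria groups have 2, and each replicate number is taken as one round in which all treatments were given. The age of the worms, the number pooled in a library and the number of gerbils behind it are not given in the sources used here, so p-values measure the spread between these libraries.

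Total counts ran from 2112032 to 37822431 in females, from 6037954 to 27464745 in males and from 5867535 to 24449425 in microfilariae. All 150 members had at least 1 count in every female library, 143 to 150 had one in each male library, and 128 to 148 in each microfilaria library. Some libraries stood apart in the members. In 3 day 1 female libraries, which are replicate 3 without drug, with diethylcarbamazine and with ivermectin, the members took 2.38% to 2.78% of counts, against 2.93% to 4.18% in the other 21. In 4 drug-treated male libraries they took 0.335% to 0.507%, against 0.0563% to 0.0923% in the other 14. Female libraries of untreated day 7 replicate 2 and diethylcarbamazine day 1 replicate 1 held raised levels of 150 male-restricted genes chosen by the same rule with the stages exchanged, at 2.60 and 2.19 on the mean log2(CPM + 1) scale, against 0.52 to 0.91 in the other female libraries.

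**Figure D1:**
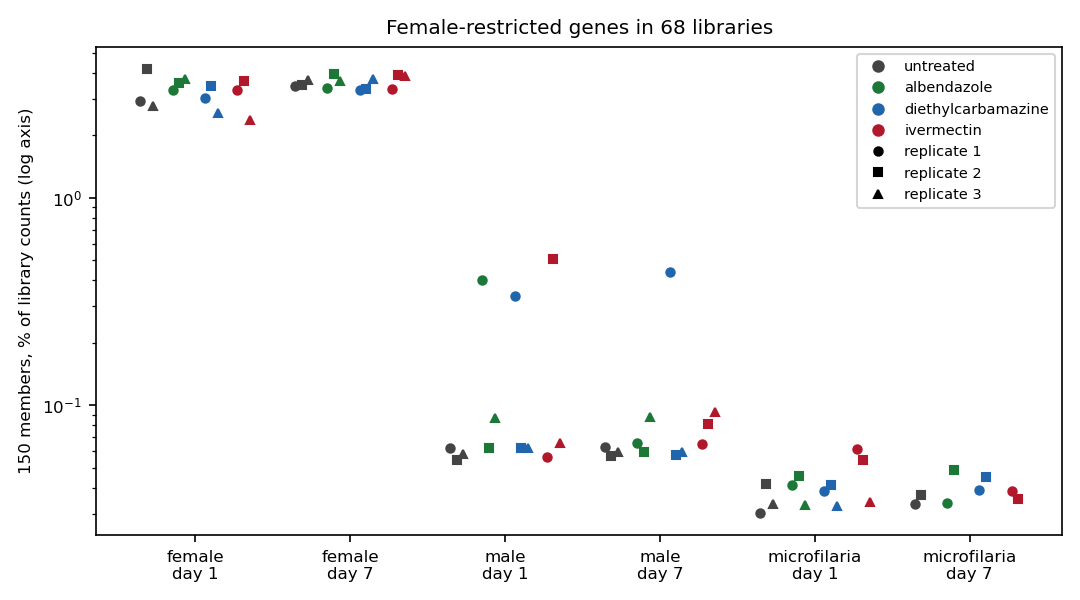
Share of library counts taken by the 150 members, in percent on a log axis, for each of the 68 libraries by stage, day, treatment (colour) and replicate (symbol). Female libraries sit between 2.38% and 4.18%, and 4 male libraries between 0.335% and 0.507% stand above the remaining males.

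In untreated females the members' mean levels ran from 13.8 to 6841 CPM with a median of 97.5 CPM. Their median was 1.38 CPM in untreated males and 0.836 CPM in untreated microfilariae. Of the 150 members, 61 averaged under 1 CPM in untreated males and 80 in untreated microfilariae, while 16 and 9 reached 10 CPM there. The higher of the other stages was the male for 91 members and the microfilaria for 59. These values chose the members, so they are given without a test.

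The ratio that ranked the members fell quickly from the first. WBGene00234986 had a ratio of 1970, at 6841 ± 2869 CPM in untreated females (SD, n = 6), 2.47 ± 1.83 in untreated males (n = 6) and 1.23 ± 0.66 in untreated microfilariae (n = 5). Its 6 untreated female libraries held 4614, 9905 and 2246 CPM at day 1 and 7683, 8908 and 7692 CPM at day 7. The lowest of them, day 1 replicate 3, lay far above the highest untreated male library at 6.02 CPM.

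WBGene00230752 came next with a ratio of 344, at 631 ± 120 CPM in untreated females, 0.192 ± 0.196 in untreated males and 0.832 ± 0.274 in untreated microfilariae. Its untreated female libraries held 449, 679 and 570 CPM at day 1 and 582, 733 and 771 CPM at day 7, with no low value in day 1 replicate 3. Of the 150 members, 15 had a ratio of 100 or more, 41 of 50 or more and 89 of 20 or more. At the boundary, WBGene00268818 was the last taken with a ratio of 11.67 and WBGene00223945 the first left out with 11.59, so the boundary is a matter of rank and not a gap.

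Drug-treated libraries had no part in the choice, and the members kept their stage pattern in them. Genes chosen for a female excess can pass the filter that drops low counts through female libraries alone. The numbers of members called against males and microfilariae therefore only describe how far the choice carried over to other libraries of the same stages. Every member (150 of 150) was higher in drug-treated females than in drug-treated males at a Benjamini-Hochberg adjusted p under 0.05 (edgeR, quasi-likelihood), where 43.5% of the 10876 genes tested were higher. The members' median log2 fold change was 4.69, against 0.05 over all genes, and 5.71 without the 4 male libraries rich in the members. Every drug-treated female library lay above every drug-treated male library for 118 members, against 14.5% of all genes.

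WBGene00225864 had the smallest p of that comparison, at 4.31 log2 units higher in females (SE 0.17, edgeR adjusted p = 8.88e-24). Its drug-treated female libraries held 34.0 to 130 CPM (median 81.2, n = 18) and its drug-treated male libraries 1.61 to 9.18 CPM (median 3.10, n = 18), without overlap. WBGene00225165 differed by 4.60 (SE 0.19, edgeR adjusted p = 9.14e-24), from 25.3 to 65.1 CPM (median 39.5) in females and from 0.663 to 4.59 CPM (median 1.59) in males. Its groups did not overlap either.

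Against drug-treated microfilariae the difference was wider. Again 150 of 150 members were higher in females, where 38.6% of genes tested were, and the members' median log2 fold change was 6.12, against -0.01 over all genes. All 150 members had every drug-treated female library above every drug-treated microfilaria library, against 14.3% of genes. These comparisons share the drug-treated female libraries.

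WBGene00226032 led that comparison at 8.36 log2 units higher in females (SE 0.28, edgeR adjusted p = 4.58e-26). It held 158 to 382 CPM (median 310.5) in the 18 drug-treated female libraries and 0.243 to 1.85 CPM (median 0.736) in the 15 drug-treated microfilaria libraries. WBGene00231335 differed by 7.60 (SE 0.26, edgeR adjusted p = 5.35e-26), from 54.6 to 116 CPM (median 82.7) in females and from 0 to 0.785 CPM (median 0.449) in microfilariae. Both members were scarce in every microfilaria library, drug-treated or not.

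The cut-offs of the rule were then applied to each drug group in place of the untreated ones. All 150 members passed both in the albendazole and diethylcarbamazine groups of both days and in the ivermectin group of day 7, and 148 passed in the ivermectin group of day 1. The median ratio at day 1 was 14.4 after albendazole, 13.7 after diethylcarbamazine and 9.94 after ivermectin, and at day 7 it was 25.5, 14.2 and 26.8. The 4 groups with medians under 15 are those that hold the 4 male libraries rich in the members.

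The question of the study was how each drug alters gene expression of worms inside the host. In females no member was called for any drug on either day (0 of 150 in all 6 comparisons, where 0% of the 10264 genes tested were called) by edgeR's quasi-likelihood test. DESeq2 called 0 members as well. At an unadjusted p under 0.05 there were 4, 4 and 1 members at day 1 with albendazole, diethylcarbamazine and ivermectin, and 0, 0 and 1 at day 7. Unadjusted counts, here and below, have no share of all genes beside them and are not read as results about the members. The 3 comparisons of a day share their untreated libraries, which also took part in choosing the members.

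Levels of the members in the female groups lay close together at day 7 and were spread at day 1. At day 7 they took 3.56% ± 0.13 of counts in untreated worms (SD, n = 3), 3.67% ± 0.28 after albendazole, 3.47% ± 0.25 after diethylcarbamazine and 3.72% ± 0.31 after ivermectin. At day 1 the shares were 3.30% ± 0.76, 3.55% ± 0.21, 3.03% ± 0.46 and 3.12% ± 0.67 in that order. The 3 groups with the wide spread at day 1 each hold one of the libraries that stood apart.

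Median log2 fold changes of the members at day 1 were 0.01 for albendazole, -0.02 for diethylcarbamazine and -0.10 for ivermectin, and at day 7 they were 0.08, -0.02 and 0.07. Without the 3 libraries the day 1 medians were -0.02, 0.03 and 0.02. The single members ran from -1.70 to 0.68 at day 1 and from -0.84 to 0.56 at day 7.

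The effect of each drug at day 7 was also set against its effect at day 1. No member differed for any drug (0 of 150 by edgeR's quasi-likelihood test and by DESeq2, 0% of genes), with 1 member at an unadjusted p under 0.05 for albendazole and 0 for both other drugs. The members' median difference was 0.03 for albendazole, -0.01 for diethylcarbamazine and 0.14 for ivermectin, and it was 0.04 for ivermectin without the 3 libraries.

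Days differed little in the members. Between day 7 and day 1 of the drug-treated females, 0 of 150 members were called by edgeR's quasi-likelihood test and by DESeq2 (0% of genes), with 8 at an unadjusted p under 0.05 and a median log2 fold change of 0.05. With the replicate number as a block within each day, 6 members were higher and 7 lower at day 7, where 5.73% and 7.47% of genes were. That block takes the spread between rounds out of the error, so these calls do not set the days against that spread. The members' shares lay below those of all genes. In untreated females 0 members were called between the days (0% of genes), with 3 at an unadjusted p under 0.05 and 0 by DESeq2.

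Rounds, in contrast, split the members, and the genes as a whole with them. At day 1, round 3 was set against rounds 1 and 2 across the 12 female libraries with treatment in the model, and 36 members were higher and 55 lower by edgeR's quasi-likelihood test. Of the 10197 genes tested, 28.2% were higher and 24.2% lower, which is 52.4% in either direction. The members' median log2 fold change was -0.30, against -0.02 over all genes. The split depends on the scaling of the libraries: without TMM factors 22 members were higher and 86 lower, with a median of -0.80 against -0.53 over all genes. Without ivermectin replicate 3 the number lower was 36.

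The 4 treatments did not share this change. In round 3 of the untreated, diethylcarbamazine and ivermectin females the members stood at a median of -0.87, -1.06 and -1.15 from the mean of the same treatment's rounds 1 and 2 on the log2(CPM + 1) scale. The medians over all genes with a mean female count of 10 or more were -0.64, -0.80 and -0.55. In round 3 of the albendazole females the members' median was -0.02, and that over all genes was 0.05. At day 7 the medians of the members in round 3 lay between -0.03 and 0.11 in the 4 treatments.

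Within the 3 libraries the members went both ways. By at least 1 log2 unit, 72 members were lower in the untreated library, 76 with diethylcarbamazine and 79 with ivermectin, where 29.9%, 39.9% and 25.5% of genes were. By the same amount 15, 17 and 10 members were higher, where 5.33%, 5.57% and 4.77% of genes were. In all 3 libraries alike 60 members were lower and 10 higher, where 21.4% and 3.71% of genes were. With albendazole 0 members were lower by that amount and 1 was higher, where 0.504% and 0.332% of genes were. These counts compare single libraries and carry no test. They use CPM without TMM factors, which were 0.715, 0.620 and 0.717 in the untreated, diethylcarbamazine and ivermectin libraries. With those factors the falls would be smaller and the rises larger.

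The order of the members was much the same in the 3 libraries. Spearman's rho of their round 3 changes over the 150 members was 0.94 between untreated and ivermectin, 0.90 between diethylcarbamazine and ivermectin and 0.84 between untreated and diethylcarbamazine. With the albendazole library it was 0.18 to 0.26. Members share a library and its depth, so these coefficients only describe the libraries. Male-restricted genes were not raised in the 3 libraries, at 0.52 to 0.64 on the mean log2(CPM + 1) scale, and microfilaria-restricted genes stood at 2.47 to 3.11 there and 2.65 to 3.32 in the other 21. The round and any other difference between these libraries cannot be told apart.

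**Figure D2:**
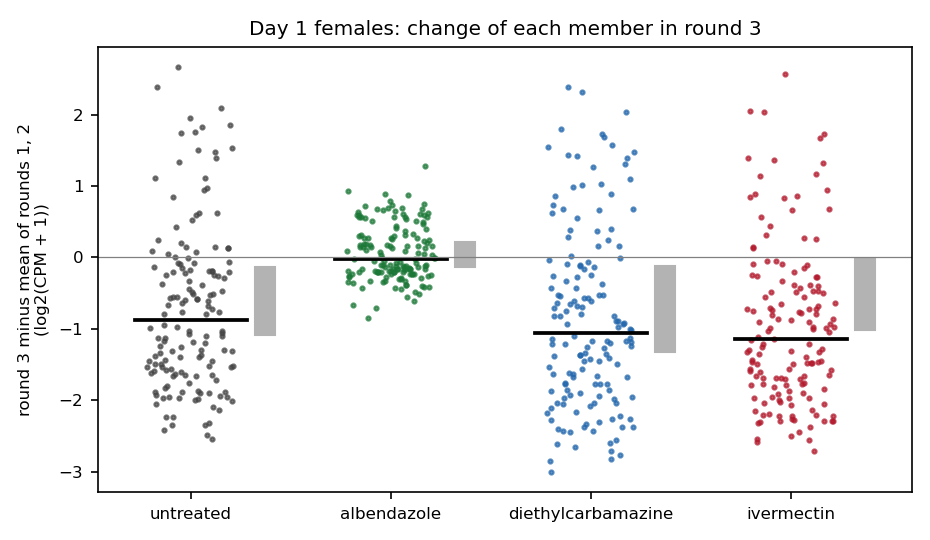
Change of each of the 150 members in round 3 of day 1 females against the mean of rounds 1 and 2 of the same treatment, in log2(CPM + 1) units; points are members, black lines their medians and grey bars the range from the first to the third quartile of all genes. From left to right the medians are -0.87, -0.02, -1.06 and -1.15. The CPM are not TMM-scaled.

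Of the members lower in round 3, WBGene00221153 had the smallest p, at -1.53 log2 units (SE 0.21, edgeR adjusted p = 0.00265). It held 3.67 CPM untreated, 2.86 with diethylcarbamazine, 3.10 with ivermectin and 11.6 with albendazole in round 3. Its 8 libraries of rounds 1 and 2 held 13.7 to 24.3 CPM, so all 4 round 3 libraries lay below them and albendazole lay nearest.

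WBGene00226634 fell by 1.47 on the log2 scale (SE 0.21, edgeR adjusted p = 0.00265). It held 86.7 to 95.5 CPM in rounds 1 and 2, and 19.9, 64.5, 13.6 and 14.3 CPM in round 3 of the untreated, albendazole, diethylcarbamazine and ivermectin groups. At day 7 it held 63.0 to 109 CPM in all rounds. The first-ranked WBGene00234986 was also low in the 3 libraries, at 2246, 9305, 2067 and 1813 CPM in round 3 in that order of groups. Its rounds 1 and 2 held 4614 to 9905 CPM, a range that includes its albendazole value.

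Among the members higher in round 3, WBGene00226446 rose by 1.27 on the log2 scale after TMM scaling (SE 0.13, edgeR adjusted p = 0.00233). Its CPM in rounds 1, 2 and 3 was 23.3, 47.9 and 61.0 untreated, 24.5, 66.1 and 99.8 with albendazole, 31.0, 57.9 and 65.7 with diethylcarbamazine, and 37.5, 81.5 and 61.0 with ivermectin. These CPM are not TMM-scaled. TMM factors over all 68 libraries were 0.715, 0.620 and 0.717 in untreated, diethylcarbamazine and ivermectin replicate 3 of day 1, which raise scaled levels there. Round 1 was lowest in every treatment, and albendazole moved with the others. With ivermectin the member's CPM in round 3 lay below its CPM in round 2. At day 7 its levels lay between 69.2 and 103 CPM.

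WBGene00222157 rose by 1.38 (SE 0.16, edgeR adjusted p = 0.00241). It held 158, 138, 198 and 150 CPM in round 3 of the untreated, albendazole, diethylcarbamazine and ivermectin groups, against 68.8 to 130 CPM in rounds 1 and 2. All 4 round 3 libraries lay above all 8 others.

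Rounds 1 and 2 of day 1 were closer to each other. There 1 member was higher in round 2 and 3 lower, where 1.67% and 3.30% of genes were. The member that was higher was WBGene00226446, by 1.05 (SE 0.16, edgeR adjusted p = 0.00616), and the smallest p among the lower ones was that of WBGene00225641, at -0.95 (SE 0.16, edgeR adjusted p = 0.0105). The counts rested on a single library, since without albendazole replicate 3, whose round 3 library differs from the other 3, they were 19 and 18. The spread is taken over all 12 libraries of the day.

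At day 7 the rounds split the members along another line. In round 2 against round 1, 45 members were higher and 29 lower by edgeR's quasi-likelihood test, where 18.4% and 20.6% of the 10199 genes were. In either direction 39% of genes were called, so this split too ran through the genes as a whole. Log2 fold changes of the higher members ran from 0.19 to 1.12 with a median of 0.50, and those of the lower members from -0.42 to -0.16 with a median of -0.26. Without TMM factors 52 were higher and 21 lower, and the number lower was 18 without untreated replicate 2, 15 without ivermectin replicate 1 and 16 without ivermectin replicate 2.

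WBGene00268797 rose by 1.09 from round 1 to round 2 (SE 0.14, edgeR adjusted p = 0.000126). In the untreated, albendazole, diethylcarbamazine and ivermectin groups it held 16.9, 18.7, 17.5 and 23.9 CPM in round 1, 41.9, 47.3, 27.5 and 46.9 CPM in round 2 and 50.6, 40.9, 50.5 and 44.1 CPM in round 3. Every round 1 library lay below every other. WBGene00226145 rose by 1.12 (SE 0.15, edgeR adjusted p = 0.000149), from 43.4 to 82.5 CPM in round 1 to 130.2 to 161 CPM in round 2. At day 1 the same member held 308 to 532 CPM in the 3 round 3 libraries that stood apart, 73.9 CPM in that of albendazole and 51.9 to 167 CPM in rounds 1 and 2.

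WBGene00269270 fell by 0.31 on the log2 scale from round 1 to round 2 (SE 0.05, edgeR adjusted p = 0.000523). It went from 191 to 218 CPM in round 1 to 151 to 183 CPM in round 2, without overlap. WBGene00235062 fell by 0.42 (SE 0.08, edgeR adjusted p = 0.00162), from 77.3 to 96.2 CPM to 63.9 to 72.7 CPM. Here too the groups did not overlap.

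Round 3 of day 7 differed little from rounds 1 and 2, with 11 members higher and 4 lower, where 3.81% and 2.65% of genes were. WBGene00268871 was highest by p, at 0.58 (SE 0.07, edgeR adjusted p = 0.00147), and WBGene00222012 led the lower ones, at -0.21 (SE 0.05, edgeR adjusted p = 0.0263). These counts did not hold: single libraries left out took them from 1 to 14 and from 0 to 10, and without TMM factors they were 13 and 1. The lowest numbers came without diethylcarbamazine replicate 3 (1 higher, 0 lower), and leaving out untreated replicate 3 gave 4 and 9.

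**Figure D3:**
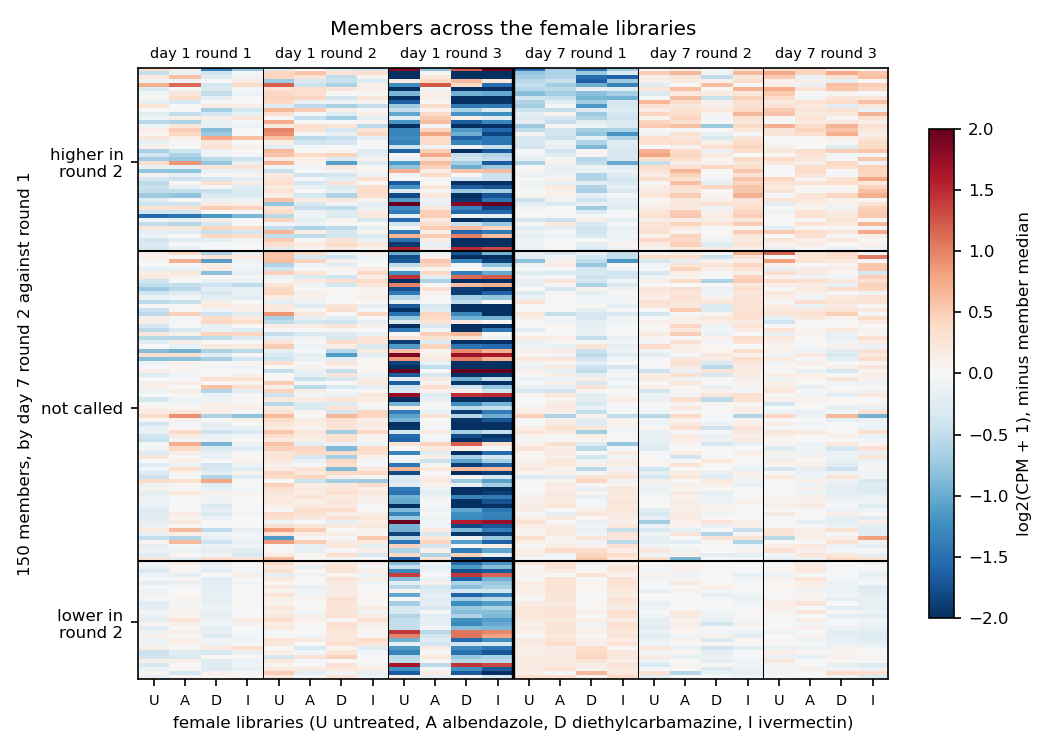
Level of the 150 members (rows) in the 24 female libraries (columns), as log2(CPM + 1) minus the member's median over the libraries; rows are grouped by the day 7 comparison of round 2 with round 1 (45 higher, 76 not called, 29 lower). Day 1 round 3 stands out in 3 of its 4 columns, and day 7 round 1 is low in the upper block.

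The spread of the members over the female libraries overlapped widely with that of all genes. Their median coefficient of variation over the 24 libraries was 29.6% (quartiles 22.5% and 34.4%), against 24.6% (18.2% and 32.4%) over all genes. Over the 21 libraries without the 3 it was 16.3% (12.03% and 23.6%), against 14.2% (10.1% and 21.5%), and the difference was not tested. The median Pearson correlation between a pair of members was 0.48 over 24 libraries and 0.11 over 21, against 0.36 and 0.04 over all genes. Much of the common movement of the members thus went with the 3 libraries. The rule did not use drug-treated libraries, which make up 18 of the 24, but it did use the untreated ones.

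In males the members were low, and the exceptions were single libraries. No member was called in any of the 6 drug comparisons (0 of 150 by edgeR's quasi-likelihood test and by DESeq2, 0% of 10347 genes). At an unadjusted p under 0.05 there were 30, 18 and 60 members at day 1 with albendazole, diethylcarbamazine and ivermectin, and 0, 27 and 0 at day 7. The share of all genes at that threshold is not set beside these counts, so whether they are particular to the members is not shown. The untreated males, low by the rule, are the common controls of a day, and this choice alone can raise changes against them.

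Untreated males gave the members 0.0546% to 0.0631% of counts. With drug, albendazole day 1 replicate 1 reached 0.400%, diethylcarbamazine day 1 replicate 1 reached 0.335%, diethylcarbamazine day 7 replicate 1 reached 0.441% and ivermectin day 1 replicate 2 reached 0.507%. The companions of these libraries in their groups held 0.0563% to 0.0871%. Median log2 fold changes of the members ran from 1.30 to 1.74 in the 4 groups concerned. Without the 4 libraries they were 0.30, 0.01 and 0.04 for albendazole, diethylcarbamazine and ivermectin at day 1 and -0.07 for diethylcarbamazine at day 7.

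At day 7 the median was 0.20 with albendazole and 0.53 with ivermectin, in groups that hold none of the 4 libraries. The members took 0.0652%, 0.0811% and 0.0923% of counts in ivermectin replicates 1 to 3, all above the untreated day 7 males at 0.0571% to 0.0631%. The highest, replicate 3, was also the drug-treated male library with the lowest level of male-restricted genes (7.39 on the mean log2(CPM + 1) scale). Microfilaria-restricted genes took 1.12% of counts in it, the largest share of all male libraries. On the mean log2(CPM + 1) scale they stood at 2.45, the lowest of the drug-treated males. The part of either set in the value was not tested. In albendazole the 3 values were 0.0661%, 0.0596% and 0.0877%, which overlap the untreated range. Neither group had a member past the adjusted threshold. The untreated males helped to choose the members as low, which alone can place drug-treated males above them, and its part was not tested.

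The level of each member above its untreated male mean was then expressed in percent of the distance between untreated male and untreated female. In 3 of the 4 libraries this share was much the same for most members. Its median and quartiles were 10.4% (7.74% and 12.5%) in albendazole day 1 replicate 1, 8.03% (6.86% and 9.02%) in diethylcarbamazine day 1 replicate 1 and 10.8% (8.27% and 13.2%) in diethylcarbamazine day 7 replicate 1. In the other 14 drug-treated male libraries the median lay between -0.04% and 0.94%.

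Ivermectin day 1 replicate 2 had a like median of 10.6% but another shape. Its quartiles were 1.23% and 26.5% and its highest member reached 84.1%. Over 20% stood 55 members and under 2% stood 45, where the other 3 libraries held 0 to 4 members over 20% and 0 or 1 under 2%. This library has the lowest total of the males at 6037954 counts.

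The first-ranked members show the difference plainly. WBGene00234986 held 584, 551 and 620 CPM in the albendazole day 1, diethylcarbamazine day 1 and diethylcarbamazine day 7 libraries, and 3.81 CPM in the ivermectin library, which lies within its untreated male range of 1.17 to 6.02 CPM. WBGene00230752 held 40.5, 29.5 and 47.9 CPM and then 0.828 CPM, against 0 to 0.547 CPM in untreated males. WBGene00269270 went the other way, at 23.3, 15.6 and 22.5 CPM and then 61.4 CPM, against 2.77 to 3.74 CPM in untreated males.

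Levels in this library differed along the day 7 split of the females. In the ivermectin library the 29 members that were lower in round 2 of day 7 females had a median of 26.7% (quartiles 21.3% and 29.6%). The 45 that were higher had 2.37% (0.12% and 7.06%), and the 76 not called had 16.4%. In the albendazole library the medians were 10.95% for the lower and 8.22% for the higher members, in the diethylcarbamazine libraries 8.04% and 8.13% at day 1 and 11.7% and 9.04% at day 7.

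In round 3 of day 1 females these groups of members took no common direction over the treatments. With albendazole the round 3 change had a median of 0.37 in the 45 members and -0.17 in the 29. It was lower in the 45 than in the 29 in the untreated library, at -1.26 and -0.55, and with ivermectin, at -1.33 and -0.88, and close with diethylcarbamazine, at -0.88 and -0.92. Over the 150 members, Spearman's rho between the percent of the female level in the ivermectin male library and the albendazole change was -0.71, and it was -0.24, -0.36 and -0.28 with the untreated, diethylcarbamazine and ivermectin changes. With the day 7 log2 fold change of round 2 against round 1 it was -0.53. Diethylcarbamazine day 7 replicate 1 had a rho of -0.43 with the albendazole change, -0.22 with the day 7 change and 0.53 with the ivermectin male library, so these relations were not limited to that library. Albendazole day 1 replicate 1 had -0.17 and -0.22 with both changes and diethylcarbamazine day 1 replicate 1 had -0.02 and 0.05. The female level in the percentages is the mean over the untreated females of both days. It therefore shares libraries with the untreated round 3 change and with the day 7 change, but not with the round 3 changes of the drug groups. Members also differ in abundance, with medians of 68.8 CPM in the 45 and 194 CPM in the 29 in untreated females. No test was run on these groups, which were formed from the same series.

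**Figure D4:**
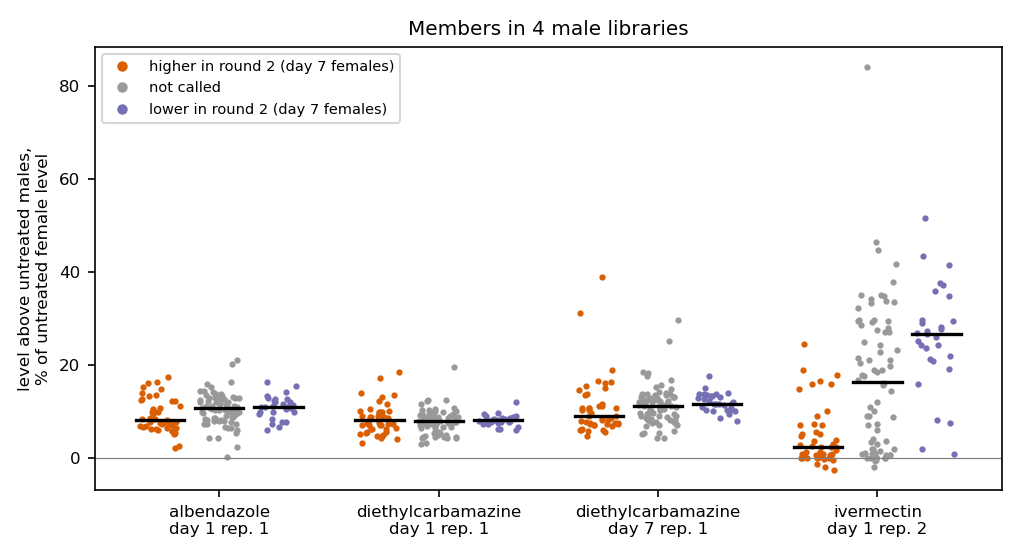
Level of each member above the untreated male mean in 4 male libraries, in percent of the untreated female level above that mean, by the member's day 7 call in females (round 2 against round 1); points are members and black lines medians. The medians of the 3 groups lie between 7.99% and 11.7% in the first 3 libraries and at 2.37%, 16.4% and 26.7% in ivermectin day 1 replicate 2.

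Male-restricted genes in the 4 libraries lay within the range of the other 14, at 7.90 to 8.11 on the mean log2(CPM + 1) scale, against 7.39 to 8.19. Microfilaria-restricted genes were at 2.73 to 2.74 in the 4 and 2.45 to 2.75 in the others. Ranges of this width cannot show a small shift in either set. Whether RNA of females took part in the 4 male libraries was not tested.

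In microfilariae 121 of the 150 members passed the filter on low counts, and none was called for any drug (0 in all 6 comparisons by edgeR's quasi-likelihood test and by DESeq2, 0% of 10174 genes). At an unadjusted p under 0.05 there were 7, 5 and 33 members at day 1 with albendazole, diethylcarbamazine and ivermectin, and 4, 2 and 2 at day 7. Here too the share of all genes at that threshold is not set beside the counts. The untreated microfilariae, low by the rule, are the common controls of a day. That choice alone can raise changes against them, and its part was not tested. Median log2 fold changes over the 121 were 0.34, 0.18 and 0.69 at day 1 and 0.47, 0.37 and 0.15 at day 7 in the same order of drugs. Their order rests on single libraries: ivermectin at day 1 gave 0.42 without ivermectin replicate 1 and 0.95 without replicate 3, and albendazole at day 7 gave 0.04 without albendazole replicate 2. With the replicate number as a block, 1 member was called higher with ivermectin at day 1, where 0.138% of genes were higher.

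That member, WBGene00268870, was named after its value was seen. In day 1 ivermectin microfilariae it had 45, 36 and 4 counts, which are 3.80, 2.69 and 0.348 CPM. The untreated day 1 libraries had 0, 2 and 0 counts, so its fold rests on a near absence in the controls. In untreated females it stood at 97.3 ± 43.1 CPM (SD, n = 6).

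The ivermectin replicates differed among themselves. Ivermectin replicates 1 and 2 of day 1 had a mean level over the 150 members of 1.88 and 1.68 on the log2(CPM + 1) scale, above 1.06, 1.36 and 1.16 in the untreated libraries of that day, and replicate 3 at 1.15 lay among them. Male-restricted genes moved with the members in the same libraries, at 1.66, 1.30 and 0.594 with ivermectin, against 0.549, 0.894 and 0.620 untreated. Both sets were chosen to be low in the untreated microfilariae, which alone can place those libraries below drug-treated ones. Replicate 3 stood at 1.09 to 1.16 and 0.552 to 0.620 in the 4 day 1 groups. It was the lowest replicate in both sets in each drug group, while in the untreated group replicate 1 was lower, at 1.06 and 0.549. The part of adult worm RNA of either sex in these values was not tested.

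**Figure D5:**
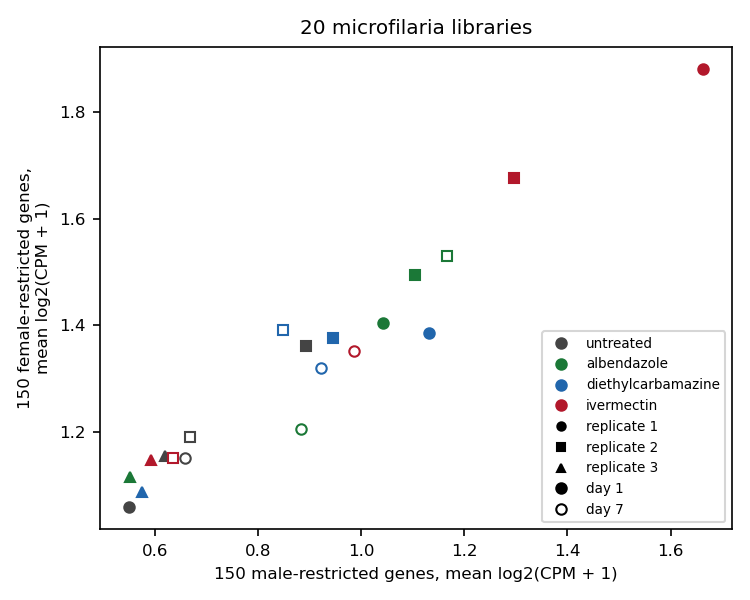
Mean log2(CPM + 1) of the 150 female-restricted members against that of the 150 male-restricted genes in the 20 microfilaria libraries (colour, treatment; symbol, replicate; filled, day 1; open, day 7). Ivermectin day 1 replicates 1 and 2, at 1.88 and 1.68 for the members, are at the upper right and are high in both.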

How the data were processed

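RNA was measured in 68 libraries. The deposited table holds raw counts per gene, not normalized by the authors, and per the labels' protocols the libraries came from a TruSeq kit that keeps strand. TopHat2 2.0.14 and HTSeq 0.6.1p1 are named in the submitters' processing notes. The genome build, the annotation and the counting options are not given in the sources used here, so reads of near-identical gene copies may be split. Columns were joined to samples by the name in the label. None (0) of the 11590 identifiers matches the reference table of 11688 genes, so no list of named genes was counted and no sequence is shown.

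From the counts, CPM (counts per 1000000 of the column total) and log2(CPM + 1) were computed with Python 3.11.15, pandas 2.3.3 and numpy 2.4.6, and figures drawn with matplotlib 3.10.9. Tests used edgeR 4.0.16 with limma 3.58.1 in R 4.3.3 (filterByExpr with a minimum count of 10 and total of 15, TMM scaling, quasi-likelihood test, two-sided, Benjamini-Hochberg over all genes tested, threshold 0.05), with DESeq2 1.42.0 as an alternative. One fit per stage covered 10264, 10347 and 10174 genes in females, males and microfilariae. Drug-treated stages were compared in one fit of 51 libraries, and rounds in fits of the 12 female libraries of a day with treatment as a term. Scripts were tested on simulated counts.

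Same-numbered libraries are taken as one round, since the study's design text says that each replicate held all treatments. Whether a number marks one day or one cohort of gerbils is not given there. Within a stage and day their deviations from the group means had a median Pearson correlation of 0.59 and 0.39 in females (day 1, day 7), 0.22 and 0.21 in males and 0.47 and 0.40 in microfilariae, against -0.13 to -0.40 for different numbers. The lowest single pairs of the same number were at 0.04 and 0.03 in females, -0.27 and -0.70 in males and 0.20 and 0.12 in microfilariae. Library totals, given with the results, limit the precision of low counts.

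The members, the lists and the tests were chosen with earlier results of these data known. Named are the first 2 members, the last taken, the first left out, and in each comparison at most 2 higher and 2 lower members past the threshold, by smallest p. Alternatives were RLE scaling, no scaling, no filter, DESeq2, the replicate block, no treatment term, other forms of the rule, and leaving out single libraries, the libraries that stood apart or the albendazole libraries.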

Additional observations from a re-analysis of the deposited data

How the results depend on the processing

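Among the counts of members called, 739 alternative values were computed for 59 counts, and 698 kept within 1.5 times the main count. For comparisons in which no member was called, 567 of 570 alternative counts were 0. The exceptions came from the replicate block, with 6 members higher and 7 lower at day 7 against day 1 in drug-treated females, and 1 higher with ivermectin in day 1 microfilariae; the block changed no other call. In round 3 of day 1 females, no scaling beyond column totals gave 22 higher and 86 lower, and leaving out single libraries gave 36 to 77 lower. In round 2 against round 1 of day 1, 2 were higher with no treatment term, 0 lower with no scaling, 10 higher and 12 lower without the albendazole libraries, 3 and 7 by DESeq2, and 1 to 19 and 0 to 18 when single libraries were left out. In round 3 of day 7, the number lower was 2 with RLE scaling, 0 with no treatment term, 1 with no scaling, 0 without the albendazole libraries and 11 by DESeq2, and single libraries left out gave 1 to 14 higher and 0 to 10 lower. In round 2 against round 1 of day 7, they gave 15 to 34 lower. The cause of these shifts was not tested, and the settings without scaling or without albendazole were chosen after seeing the data. Of 302 alternative values for the 19 named results, 24 lost the call and 0 turned. Other forms of the rule (TMM-scaled CPM, either day alone, constants of 0.5 or 2 CPM, medians, single replicates left out) shared 138 to 148 of the 150 members. Counts under about 10 per library, common for members in males and microfilariae, leave their changes poorly resolved.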
